A study of Mus musculus with 18 samples.

Results

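The inflammatory and atypical chemokine receptors measured here are 9 genes. They are the inflammatory receptors Ccr1, Ccr2, Ccr3, Cxcr2 and Cx3cr1 and the atypical receptors Ackr1, Ackr2, Ackr3 and Ackr4. They were picked by name from a count table of 49585 genes, and all 9 had counts in these libraries and passed the filter on low counts in both model fits. RNA was sequenced from CD45+ leukocytes of Kaede mice, whose photoconvertible protein turns from green to red under UV light, so that cells present at a site when it was lit can be found later in the tissue or in its draining lymph node (LN). The study asked which signals hold leukocytes in an inflamed joint or let them leave it.

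Each of the 6 groups held 3 samples, and p-values measure the spread between samples. The paper describes the nonmigrated and migrated samples as pools of mice of both sexes. It does not give pooling or sex for the 2 further groups described below. All mice were of the Kaede strain. According to the protocol, mice received OT-II Th1 cells, were immunised with ovalbumin (OVA) in complete Freund's adjuvant, and were later challenged with heat-aggregated ovalbumin (HAO) in the footpad or the ear pinna. Living CD45+ cells that carried the red form of Kaede were sorted the day after photoconversion. Joint nonmigrated and skin nonmigrated cells came from the inflamed joint and ear. Joint migrated and skin migrated cells came from the LNs that drain them. The labels describe 2 further groups as leukocytes migrated from the joint or the ear to the LN at steady state. They are called joint steady and skin steady here. The titles of the joint steady samples carry the tags PBS and KG, while those of the skin steady samples read Naive. Whether those mice received the transfer, the immunisation or a PBS injection is not given for each of them. The protocol names the red gate for the sort as a whole, but the titles of these 2 groups do not show that their cells were red. The inflamed skin titles carry KR where the joint steady titles carry KG, which may stand for green Kaede, though the tags are not explained. The titles of the skin steady samples name no LN. Values are given as CPM, counts brought to a common library size with TMM normalization. Genes passed as called when edgeR's quasi-likelihood test over all genes gave a Benjamini-Hochberg value (adjusted p) below 0.001 and the log2 fold change exceeded 1 in size.

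Chemokine receptors are G protein-coupled receptors that steer leukocytes along gradients of chemokines. Inflammatory receptors guide mainly myeloid cells into injured tissue, with CCR1 and CCR2 on monocytes, CXCR2 on neutrophils, CCR3 on eosinophils and CX3CR1 on monocytes, macrophages and some lymphocytes. Atypical receptors bind chemokines without classical G protein signalling, and many of them take up and degrade their ligands or hold them on a cell surface.

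Library totals ran from 19239531 to 43814403 assigned counts, with the skin nonmigrated and skin migrated libraries the shallowest (19239531 to 22528895). In these skin libraries 0.0925% to 0.135% of the column fell in no gene, against 0.293% to 0.562% in the inflamed joint libraries. The study describes the skin data as a second data set, so site and data set cannot be told apart between inflamed joint and skin cells or in the interactions. Whether the skin steady libraries belonged to that set is not given. They held 28577566 to 40055171 counts with 0.2266% to 0.4405% in no gene, while the joint steady libraries had 0.2378% to 0.4244% in no gene. A count of 3, the limit that a count of 0 allows, equalled 0.0650 to 0.165 CPM depending on the library, for counting error only. Skin nonmigrated replicate 3 stood apart from the other 2 of its group: its summed CPM was 98.0 against 12.4 and 10.1 for 8 eosinophil markers, and 237 against 54.9 and 56.7 for 6 fibroblast markers. Its keratinocyte markers summed to 22.4 CPM against 129 and 257.02, and its monocyte and macrophage markers to 8986 against 5275 and 3687. Joint nonmigrated replicate 3 had the highest neutrophil markers of the 18 libraries, with 29257 CPM against 9538 and 17864 in the other 2. Where leaving out 1 of these libraries changed a call or a direction of a receptor, the value without it is given.

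Of the 9 genes, 6 lie on chromosome 9 and 3 on chromosome 1 (GRCm38). Ccr1 (ENSMUSG00000025804, chr9:123962124-123968692, minus strand), Ccr3 (ENSMUSG00000035448, chr9:124021972-124031689, plus strand) and Ccr2 (ENSMUSG00000049103, chr9:124101950-124113557, plus strand) are neighbours in 1 cluster. Ackr4 (ENSMUSG00000079355, chr9:104084157-104126933, minus strand), Cx3cr1 (ENSMUSG00000052336, chr9:119901616-120069879, minus strand) and Ackr2 (ENSMUSG00000044534, chr9:121898355-121911074, plus strand) lie elsewhere on that chromosome. Chromosome 1 holds Cxcr2 (ENSMUSG00000026180, chr1:74153989-74161246, plus strand), Ackr3 (ENSMUSG00000044337, chr1:90203980-90216751, plus strand) and Ackr1 (ENSMUSG00000037872, chr1:173331886-173333750, minus strand). For 3 of the 9, exon bases are shared with another annotated gene, where HTSeq sets reads that match both genes aside as ambiguous. Ackr1 shares 361 exon bases with Cadm3 on the same strand, Ackr4 shares 479 with Acad11 on the opposite strand, and Cx3cr1, whose span overlaps 9 genes, shares 78 with the antisense gene Gm33858. Whether the libraries keep strand is not given in the sources used here, so reads of the antisense pairs cannot be told apart in the shared bases.

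The promoters of 4 of the receptors are shown, chosen by their change between migrated and nonmigrated cells. Ccr1, Cxcr2 and Ackr3 had the largest falls at both sites, and Ackr2 was the 1 member called higher on migration, in the joint. Each sequence is the 250 bases before the RefSeq start (GRCm38.p6), 5′ to 3′ on the gene's strand, at chr9:123968693-123968942 (minus strand), chr1:74153744-74153993 (plus strand), chr1:90203730-90203979 (plus strand) and chr9:121898105-121898354 (plus strand). Capitals mark matches, on either strand, to 4 short motifs. GAGGAA is the core of sites bound by the myeloid ETS factor PU.1, AGATAA is read by GATA factors, TATAAA is the core promoter element of that type, and CCAAT is read by the factor NF-Y.
Ccr1: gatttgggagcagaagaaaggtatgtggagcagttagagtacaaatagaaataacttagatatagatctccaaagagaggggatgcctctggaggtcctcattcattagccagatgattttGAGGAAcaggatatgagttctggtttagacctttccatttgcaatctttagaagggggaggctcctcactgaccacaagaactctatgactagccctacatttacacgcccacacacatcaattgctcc
Cxcr2: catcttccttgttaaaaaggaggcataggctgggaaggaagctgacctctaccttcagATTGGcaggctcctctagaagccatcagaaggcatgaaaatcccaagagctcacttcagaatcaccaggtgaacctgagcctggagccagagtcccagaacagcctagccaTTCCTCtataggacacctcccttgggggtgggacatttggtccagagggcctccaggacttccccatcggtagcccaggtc
Ackr3: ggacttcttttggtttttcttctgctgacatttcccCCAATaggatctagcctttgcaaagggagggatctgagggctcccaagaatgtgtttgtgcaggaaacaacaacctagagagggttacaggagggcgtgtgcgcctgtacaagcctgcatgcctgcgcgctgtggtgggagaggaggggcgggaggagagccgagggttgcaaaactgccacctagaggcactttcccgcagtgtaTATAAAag
Ackr2: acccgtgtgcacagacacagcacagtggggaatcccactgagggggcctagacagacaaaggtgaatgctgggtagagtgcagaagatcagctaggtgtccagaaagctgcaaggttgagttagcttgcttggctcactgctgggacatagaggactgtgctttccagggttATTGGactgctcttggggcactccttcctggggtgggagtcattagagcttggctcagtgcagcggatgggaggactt
Over the whole 300-base windows, which end 50 bases after the start, GAGGAA was found in 3 of the 9 receptor promoters (Ccr1, Ccr3 and Cxcr2) and in 28.3% of all 32851 RefSeq promoters. AGATAA was found in 3 of 9 against 11.2% of all promoters, TATAAA in 2 of 9 against 13.6%, and CCAAT in 5 of 9 against 37.4%. A match of letters is a description and not a binding site.

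Ccr1, a receptor for CCL3, CCL5 and related CC chemokines, was highest in the skin nonmigrated cells, at 998, 907 and 864 CPM. Joint nonmigrated cells held 346, 367 and 316 CPM. The migrated cells were far below both, at 5.74, 6.37 and 10.00 CPM from the joint and 8.97, 7.96 and 9.80 CPM from the skin. These 2 migrated groups overlapped, whereas neither overlapped a nonmigrated group. At steady state, Ccr1 stood at 16.8, 16.4 and 14.1 CPM in the joint-draining LN and at 1.51, 1.14 and 0.883 CPM in the skin-draining LN. The steady-state LNs therefore lay on either side of the inflamed migrated cells, and the highest group mean was 784-fold above the lowest.

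**Figure D1:**
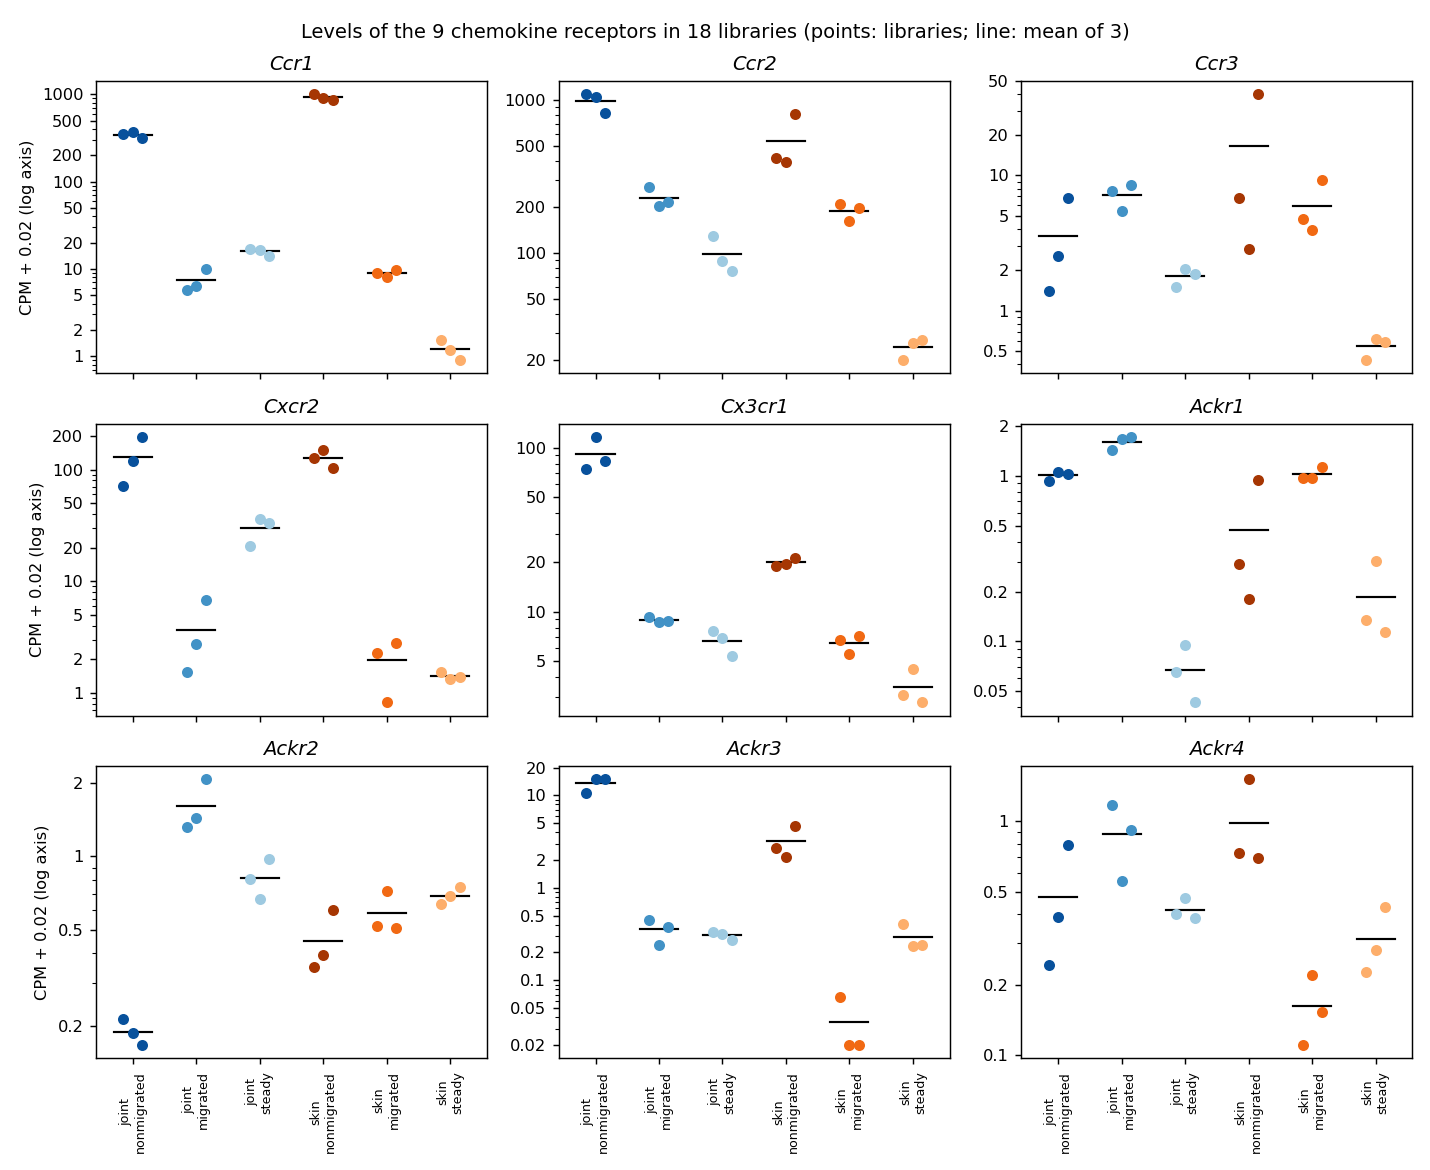
CPM plus 0.02 on log axes for each of the 9 receptors (1 panel a gene), with 1 point a library and a line at the mean of the 3 libraries of each group, joint groups in blues and skin groups in brown to orange. Ccr1 separates the nonmigrated groups (316 CPM and above) from all others, while Ackr2 is lowest in joint nonmigrated cells and Ccr3 has 1 high library in skin nonmigrated cells (39.9 CPM).

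Ccr2, the receptor for CCL2 that draws monocytes out of the bone marrow, was highest in joint nonmigrated cells, at 1090.1, 1045 and 821 CPM. Skin nonmigrated cells held 420.3, 392 and 808 CPM, the highest of them being replicate 3. Migrated cells held 272, 204 and 215 CPM from the joint and 208, 162 and 196 CPM from the skin, and these groups overlapped. Steady-state cells held 129, 88.4 and 76.3 CPM in the joint-draining LN and 19.96, 25.8 and 26.8 CPM in the skin-draining LN. Ccr2 thus had the flattest fall on leaving the tissue of the receptors that fell, and a graded order over the groups in which only the migrated pair overlapped.

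Ccr3, the eotaxin receptor, was the most uneven of the inflammatory receptors. Skin nonmigrated cells had 6.75, 2.81 and 39.9 CPM, so that a single library, the one with the high eosinophil markers, made the group mean. Joint nonmigrated cells had 1.39, 2.51 and 6.79 CPM, the highest again in the library with the highest eosinophil markers of its group. Migrated cells had 7.62, 5.44 and 8.48 CPM from the joint and 4.75, 3.90 and 9.17 CPM from the skin. Steady-state cells had 1.48, 2.02 and 1.85 CPM (joint-draining) and 0.411, 0.595 and 0.568 CPM (skin-draining), below every inflamed migrated library.

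Cxcr2, the neutrophil receptor for CXCL1, CXCL2 and CXCL5, was alike in both inflamed tissues. Joint nonmigrated cells had 71.2, 120.3 and 197 CPM and skin nonmigrated cells 127, 149 and 103 CPM. Migrated cells had 1.52, 2.71 and 6.76 CPM from the joint and 2.26, 0.801 and 2.81 CPM from the skin. The groups of each compartment overlapped between the sites. The joint-draining LN at steady state was the third highest group, at 20.5, 35.8 and 33.2 CPM, against 1.53, 1.31 and 1.36 CPM in the skin-draining LN.

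Cx3cr1, the fractalkine receptor, was highest in joint nonmigrated cells, at 73.9, 117 and 83.0 CPM. Skin nonmigrated cells had 18.9, 19.6 and 21.4 CPM, a tight group well under the joint. Migrated cells had 9.27, 8.69 and 8.77 CPM from the joint and 6.75, 5.51 and 7.13 CPM from the skin. Steady-state cells had 7.65, 6.88 and 5.38 CPM (joint-draining) and 3.08, 4.48 and 2.78 CPM (skin-draining). The antisense gene Gm33858 was at 0.126 to 3.79 CPM over the 18 libraries and was highest in skin nonmigrated cells (median 3.45 CPM), where Cx3cr1 was not at its highest.

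The atypical receptors were low. Ackr3, a scavenger of CXCL12 and CXCL11, was the one that reached over 10 CPM: joint nonmigrated cells had 10.6, 14.9 and 14.8 CPM and skin nonmigrated cells 2.69, 2.12 and 4.64 CPM. Joint migrated cells had 0.433, 0.220 and 0.358 CPM. In skin migrated cells it had 1 count in replicate 1 and 0 in the other 2 libraries, under the limit of 3 counts. Both steady-state groups had 0.214 to 0.388 CPM, level with joint migrated cells.

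Ackr2, which takes up and degrades inflammatory CC chemokines, ran the other way. Joint migrated cells were highest, at 1.30, 1.42 and 2.06 CPM, and joint nonmigrated cells lowest, at 0.194, 0.167 and 0.148 CPM (7, 5 and 5 counts). In the skin it was 0.329, 0.372 and 0.580 CPM in nonmigrated and 0.498, 0.701 and 0.490 CPM in migrated cells, and the groups overlapped. Steady-state cells had 0.787, 0.648 and 0.958 CPM (joint-draining) and 0.617, 0.667 and 0.725 CPM (skin-draining).

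Ackr1, which binds both CC and CXC chemokines and is known from red cells and venular endothelium, had 0.915, 1.04 and 1.00 CPM in joint nonmigrated and 1.41, 1.66 and 1.70 CPM in joint migrated cells. In the skin it had 0.274, 0.159 and 0.918 CPM in nonmigrated cells, the last being replicate 3, and 0.951, 0.951 and 1.11 CPM in migrated cells. It was nearly absent from the joint-draining LN at steady state, with 2, 3 and 1 counts. The skin-draining LN had 5, 12 and 3 counts. Ackr4, a scavenger of CCL19, CCL21 and CCL25, had 0.222, 0.368 and 0.767 CPM in joint nonmigrated and 1.15, 0.537 and 0.895 CPM in joint migrated cells. In the skin it had 0.713, 1.49 and 0.676 CPM in nonmigrated cells and 2, 4 and 3 counts in migrated cells, so that the joint groups overlapped and the skin groups did not.

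Between genes, levels were compared per kilobase of exon. Summed CPM per kilobase of the 5 inflammatory receptors was 318 to 350.3 in joint nonmigrated and 432 to 475 in skin nonmigrated cells. It was 37.0 to 47.1 in joint migrated and 29.4 to 37.8 in skin migrated cells. The 4 atypical receptors together reached 3.93 to 5.34 in joint nonmigrated cells, 1.76 to 2.14 in joint migrated cells and 1.14 to 2.35 in skin nonmigrated cells. They were at 0.867 to 0.974 in skin migrated cells and at 0.433 to 0.529 over both steady-state groups. The inflammatory receptors thus carried most of the level in every group. The atypical share was largest in skin steady cells, where Ackr2 made 3.66%, Ackr1 2.01%, Ackr3 1.40% and Ackr4 0.93% of the level.

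**Figure D2:**
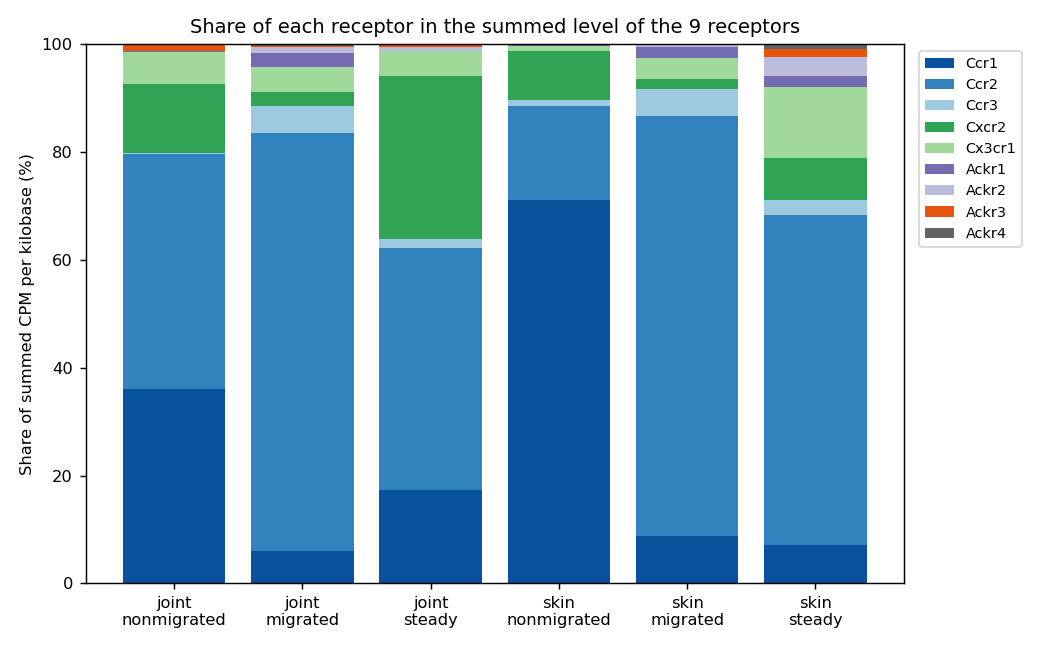
Share of each receptor (percent, stacked to 100) in the summed mean CPM per kilobase of the 9 receptors, 1 bar for each of the 6 groups. Ccr1 takes 71.1% in skin nonmigrated cells, Ccr2 takes 77.5% and 77.8% in joint and skin migrated cells, and Cxcr2 takes 30.3% in the joint-draining LN at steady state.

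The make-up differed by group. In joint nonmigrated cells Ccr2 made 43.4% and Ccr1 36.1% of the summed level per kilobase, followed by Cxcr2 with 12.7%. In skin nonmigrated cells Ccr1 made 71.1% and Ccr2 17.4%. Migrated cells from either site were mostly Ccr2, with 77.5% from the joint and 77.8% from the skin, and Ccr1 came next with 5.92% and 8.76%. At steady state, Ccr2 made 44.9% and Cxcr2 30.3% in the joint-draining LN. In the skin-draining LN, Ccr2 made 61.2% and Cx3cr1 13.1%. Shares are descriptions of group means and were not tested.

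To ask whether the receptors went with staying in or leaving an inflamed site, migrated cells were compared with nonmigrated cells at each site. In the joint, 6 of the 9 receptors were called, against 21.4% of the 16777 genes tested. Ccr1, Ccr2, Cxcr2, Cx3cr1 and Ackr3 fell, where 12.6% of all genes fell, and Ackr2 rose, where 8.8% rose. None of these 6 calls changed when any 1 library was left out. The direction of the first 5 in the joint was known when the receptors were chosen. Ackr2 rose by 3.13 on the log2 scale (SE 0.365, adjusted p 2.63e-05), or 8.77-fold. Ccr3 (0.93, SE 0.813), Ackr1 (0.62, SE 0.417) and Ackr4 (0.85, SE 0.509) were not called, with adjusted p values of 0.351, 0.225 and 0.177. Fewer cells of a type and less RNA per cell cannot be told apart in these bulk samples.

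In the skin, 5 of the 9 were called, against 20.9% of the genes tested, and all 5 fell, as 12.4% of genes did. Ccr1 fell by 6.81 on the log2 scale (SE 0.233, adjusted p 8.48e-09), which is 112-fold. Cxcr2 fell by 6.12 (SE 0.643, adjusted p 1.28e-05) and Cx3cr1 by 1.74 (SE 0.171, adjusted p 7.86e-06). Ackr3 was called lower (adjusted p 3.53e-06), with 185 counts in the 3 nonmigrated libraries against 1 in the migrated ones, a ratio of 207 with a 95% counting interval of 36.6 to 8206. Ccr2 fell by 1.63 (SE 0.248, adjusted p 0.000189), a call that was lost without skin migrated replicate 2 (adjusted p 0.00145) or replicate 3 (0.00113), and in a fit of the skin inflamed groups alone (0.00272). Without skin nonmigrated replicate 3, the highest library, Ccr2 fell by 1.23 and stayed called (adjusted p 9.65e-05).

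The other 4 receptors were not called in the skin. Ackr4 was lower by 2.86 on the log2 scale (edgeR, SE 0.633, adjusted p 0.00238), with separate groups, and passed only the looser threshold of 0.05, which 35.4% of genes passed here. DESeq2's Wald test called it at 0.001 (adjusted p 0.000251), as did a fit of all 18 libraries (0.000464). Ackr1 was higher by 1.02 (SE 0.478, adjusted p 0.0883), and without skin nonmigrated replicate 3 it was higher by 2.08 and called (adjusted p 0.000932). That call rests on 5 and 3 counts in skin nonmigrated replicates 1 and 2. Ccr3 was lower by 1.57 (SE 0.821, adjusted p 0.121), and without skin nonmigrated replicate 3 the sign turned (0.19, adjusted p 0.813). Ackr2 differed by 0.27 (SE 0.371, adjusted p 0.580).

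**Figure D3:**
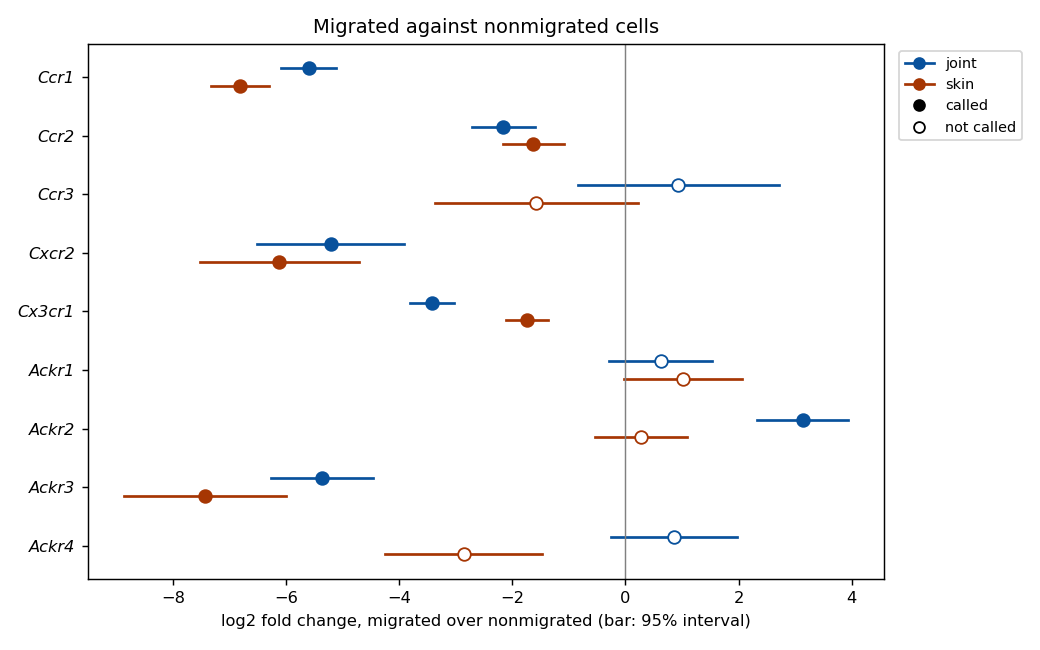
Log2 fold change of migrated over nonmigrated cells for each receptor, joint in blue and skin in brown, with bars for the 95% interval of the edgeR fit and filled points for calls. Ccr1, Cxcr2 and Ackr3 lie below -5 at both sites, Ackr2 is filled in the joint (3.13) and near 0 in the skin (0.27), and the Ackr4 points lie on opposite sides of 0 (0.85 and -2.86) with both open.

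Whether the change on migration differed between the sites was tested as an interaction. No receptor was called, against 0.119% of the genes tested, while 4 had an unadjusted p under 0.05 (edgeR), a level reached by 26.3% of all genes. At an adjusted p under 0.05 the same 4 passed, against 6.13% of genes: Ccr1 (joint minus skin 1.21, SE 0.262, adjusted p 0.0181), Cx3cr1 (-1.68, SE 0.234, adjusted p 0.00288), Ackr2 (2.87, SE 0.521, adjusted p 0.00850) and Ackr4 (3.71, SE 0.816, adjusted p 0.0198). DESeq2's Wald test called 3 of these at 0.001, all but Ackr4. The fall of Cx3cr1 was thus the larger in the joint and that of Ccr1 the larger in the skin, at the looser threshold. For Ccr2 the difference was -0.53 with a 95% interval of -1.28 to 0.22, and for Cxcr2 0.91 with an interval of -0.78 to 2.59.

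Joint and skin were then compared within each compartment, where site and data set cannot be told apart. Among nonmigrated cells, 2 of the 9 receptors were called, against 3.05% of the genes tested (1.14% higher and 1.9% lower in the joint). Cx3cr1 was higher in the joint by 2.06 on the log2 scale (SE 0.167, adjusted p 3.28e-05), or 4.18-fold, and for Ccr1 the log2 difference was -1.56 (SE 0.184, adjusted p 0.000246), 2.94-fold lower in the joint. The Ccr1 call was lost without any 1 joint replicate or without skin replicate 1 (adjusted p 0.00145 to 0.0018), and both calls were lost when these 2 groups were fitted alone (adjusted p 0.00221 each). At 0.05, which 14.3% of genes passed, Ackr3 was also higher in the joint (1.97, SE 0.346, adjusted p 0.00216) and Ackr2 lower (-1.44, SE 0.400, adjusted p 0.0208). Ackr3 was called at 0.001 by DESeq2 (adjusted p 1.31e-07), with no filter on low counts (0.000357) and with all 18 libraries in the fit (0.000243). Without skin nonmigrated replicate 3, 4 receptors were called: Ccr1, Cx3cr1, Ackr3 (2.35, adjusted p 0.000423) and Ccr2 (1.14, adjusted p 0.000528).

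Among migrated cells no receptor was called between joint and skin, and the share of all genes called was 0%. By edgeR, 4 receptors had an unadjusted p under 0.05, as did 16.5% of all genes, and DESeq2 called 0. Ackr3 passed at 0.05 (adjusted p 0.0311), where 1.14% of genes did: its 45 counts in joint migrated against 1 in skin migrated libraries gave a ratio of 22.0 with a counting interval of 3.76 to 889. Ackr2 (1.42, SE 0.333, adjusted p 0.0564) and Ackr4 (2.51, SE 0.618, adjusted p 0.0674) did not pass, although their groups did not overlap. Ccr1 differed by -0.35 with a 95% interval of -0.76 to 0.07, and Ccr2 by 0.21 with an interval of -0.32 to 0.74.

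Migrated cells of inflamed mice were also set against the steady-state groups. Since the sort gate of the steady-state cells is not certain, a change with inflammation and a difference between gates cannot be told apart in any value against or between these groups. The steady-state titles also differ by site, with PBS for the joint and Naive for the skin. Site and treatment therefore cannot be told apart between the steady-state groups or in the interaction of inflammation with site. Skin migrated and skin steady libraries may also come from different data sets. Inflammation and data set then cannot be told apart in the skin-draining LN or in that interaction. In the joint-draining LN, 5 of the 9 receptors were called, against 15.9% of 17107 genes. Ackr1, Ccr3 and Ccr2 were higher after inflammation, as were 12.4% of genes, and Cxcr2 and Ccr1 were lower, as were 3.5%. Ccr3 was 4.00-fold higher (log2 2.00, SE 0.298, adjusted p 9.53e-05) and Ccr2 2.34-fold (1.22, SE 0.188, adjusted p 0.000121). Ackr1 was called (adjusted p 1.29e-06) on 209 counts against 6, a ratio of 33.9 with a counting interval of 15.3 to 93.5. Cxcr2 was 8.18-fold lower (log2 -3.03, SE 0.462, adjusted p 0.000115) and Ccr1 2.15-fold lower (-1.11, SE 0.214, adjusted p 0.000775). At 0.05, which 24.2% of genes passed, Ackr4 was also higher (1.10, SE 0.369, adjusted p 0.0241).

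These joint calls varied with the libraries. The Ccr1 call was lost without any 1 library except joint migrated replicate 3 (adjusted p up to 0.00572). Cxcr2 was lost without joint migrated replicate 2 (0.00111), Ccr3 without joint steady replicate 1 (0.00101) and Ccr2 without joint steady replicate 2 (0.00132). With only these 2 groups in the fit, 3 receptors were called (Ccr3, Cxcr2 and Ackr1). With all 18 libraries in the fit, 3 were called, without Ccr3 (adjusted p 0.0350) and Ccr2 (0.001001).

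In the skin-draining LN, 4 of the 9 were called, against 25.1% of genes, and all 4 were higher after inflammation, as were 16.6% of genes. Ccr3 was 11.9-fold higher (log2 3.58, SE 0.341, adjusted p 9.61e-07), Ccr2 8.26-fold (3.05, SE 0.202, adjusted p 3.27e-08), Ccr1 7.89-fold (2.98, SE 0.245, adjusted p 2.35e-07) and Ackr1 6.21-fold (2.63, SE 0.406, adjusted p 7.99e-05). The Ccr3 call was lost with all 18 libraries in the fit (adjusted p 0.00137). Cx3cr1 was higher by 0.98 (SE 0.203, adjusted p 0.000859), just under the fold limit, with separate groups, and it was called (1.16) without skin steady replicate 2. Ackr3 had 1 count in the inflamed group against 33 at steady state, a ratio of 18.1 lower with a counting interval of 3.03 to 737 (adjusted p 0.00141, which passed 0.05 with 36.5% of genes but not 0.001, and 0.000775 with all 18 libraries in the fit). Cxcr2 was at 0.57 (SE 0.523, adjusted p 0.348), Ackr2 at -0.17 (SE 0.319) and Ackr4 at -0.94 (SE 0.519, adjusted p 0.126).

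**Figure D4:**
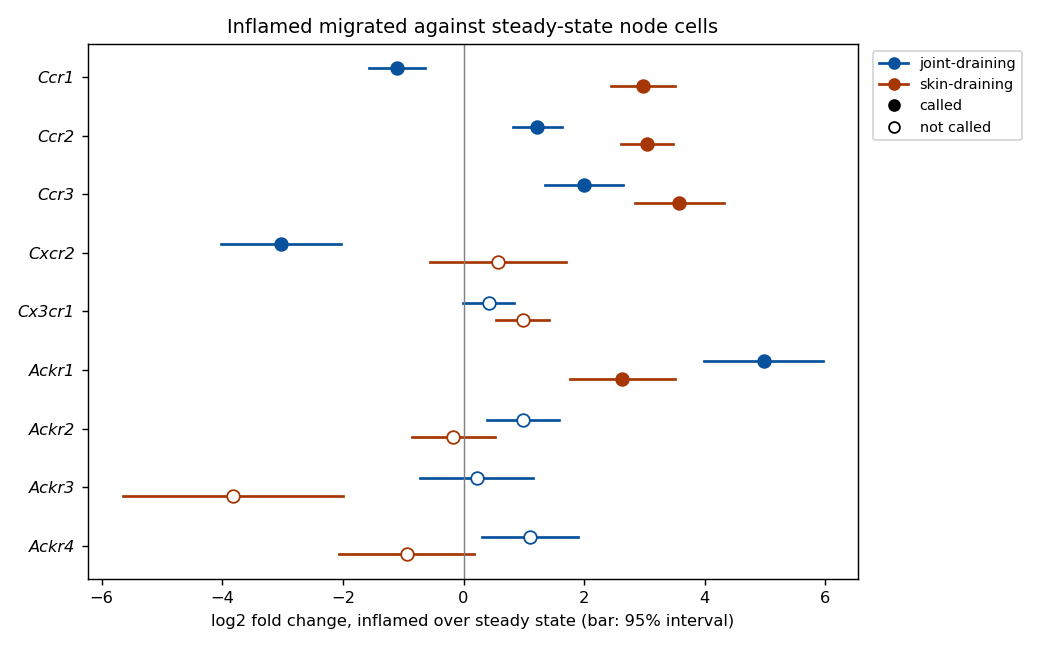
Log2 fold change of inflamed migrated over steady-state cells for each receptor, joint-draining LN in blue and skin-draining LN in brown, with bars for the 95% interval of the edgeR fit and filled points for calls. Ccr1 is filled on opposite sides of 0 (-1.11 and 2.98), while Ccr2, Ccr3 and Ackr1 are filled above 0 in both.

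The difference between the LNs in this change was tested as an interaction, chosen after seeing the data. Ccr1 was the 1 receptor called, against 0.889% of genes (0.696% lower in the joint): the difference of its changes, joint minus skin, was -4.09 on the log2 scale (SE 0.325, adjusted p 2.15e-05). At 0.05, 6 receptors passed, against 6.11% of genes, with Ccr2 (-1.82, adjusted p 0.00111), Cxcr2 (-3.61, adjusted p 0.00601) and Ccr3 (-1.58, adjusted p 0.0392) lower in the joint and Ackr3 and Ackr1 higher. DESeq2 called Ccr1, Ccr2 and Cxcr2.

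The steady-state LNs, with titles tagged PBS for the joint and Naive for the skin, themselves differed. Between them 3 of the 9 receptors were called, against 1.44% of genes, all higher in the joint-draining LN, as were 1.4% of genes. Cxcr2 was 21.3-fold higher (log2 4.41, SE 0.505, adjusted p 0.000112), Ccr1 13.3-fold (3.73, SE 0.246, adjusted p 2.28e-06) and Ccr2 4.07-fold (2.02, SE 0.194, adjusted p 3.22e-05). The Cxcr2 call was lost without any 1 skin steady replicate (adjusted p 0.00166 to 0.0019). Ccr3 (1.77, SE 0.339, adjusted p 0.00547) passed at 0.05, where 3.89% of genes did, and was called at 0.001 by DESeq2 (adjusted p 2.21e-05) and with no filter on low counts (5.78e-05). Cx3cr1 (0.94, SE 0.200, adjusted p 0.0103) was under the fold limit.

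Cell type markers moved with some of these results and not with others, and their part in them was not tested. In joint nonmigrated cells 10 neutrophil markers summed to 9538 to 29257 CPM, against 56.3 to 120.4 CPM in joint migrated cells. In the skin they summed to 1509 to 2493 CPM against 17.9 to 32.8 CPM. All 10 were called lower on migration in the joint and 8 of 10 in the skin, where 12.6% and 12.4% of all genes were. Of the 10 monocyte and macrophage markers, 9 were called lower at each site. The 10 monocyte and macrophage markers summed to 8576 to 12126 CPM in joint nonmigrated and 329 to 463 CPM in joint migrated cells. In the skin they summed to 3687 to 8986 CPM against 407 to 574 CPM. Between the inflamed tissues these sums overlapped through skin nonmigrated replicate 3 alone (8986 CPM), and the other 2 skin libraries (5275 and 3687 CPM) lay below all 3 joint libraries.

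The 2 LNs also differed in neutrophil markers at steady state. They summed to 632 to 1199 CPM in the joint-draining and 15.4 to 24.5 CPM in the skin-draining LN. All 10 were called higher in the joint-draining LN, as were 1.4% of all genes. In its inflamed migrated cells 9 of 10 were called lower, as were 3.5% of all genes. Monocyte and macrophage markers summed to 147 to 171 CPM at steady state in the skin-draining LN. There 9 of 10 were called higher after inflammation, as were 16.6% of all genes. In the joint-draining LN they summed to 242 to 297 CPM at steady state. None of them was called there after inflammation, with log2 fold changes from -1.86 (Fcgr1) to 1.59 (C1qc), although Ccr2 was called higher and Ccr1 lower. The steady-state groups differed from the inflamed migrated cells in other markers too. B cell markers summed to 2903 to 4752 CPM at steady state against 128 to 1092 CPM in inflamed migrated cells. The 8 dendritic cell markers summed to 29.8 to 41.6 CPM against 1845 to 5345 CPM. Part of that sum is Fscn1 (chosen after its values were seen), which dendritic cells switch on as they mature and migrate. It was at 2.77 to 6.01 CPM against 1228 to 3657 CPM. Cd209a was called in neither LN (log2 0.69 in the joint-draining and -0.0094 in the skin-draining LN). Xcr1 (1.25) and Clec9a (0.10) were not called in the skin-draining LN. The other members were called higher in both LNs, where 12.4% and 16.6% of all genes were.

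**Figure D5:**
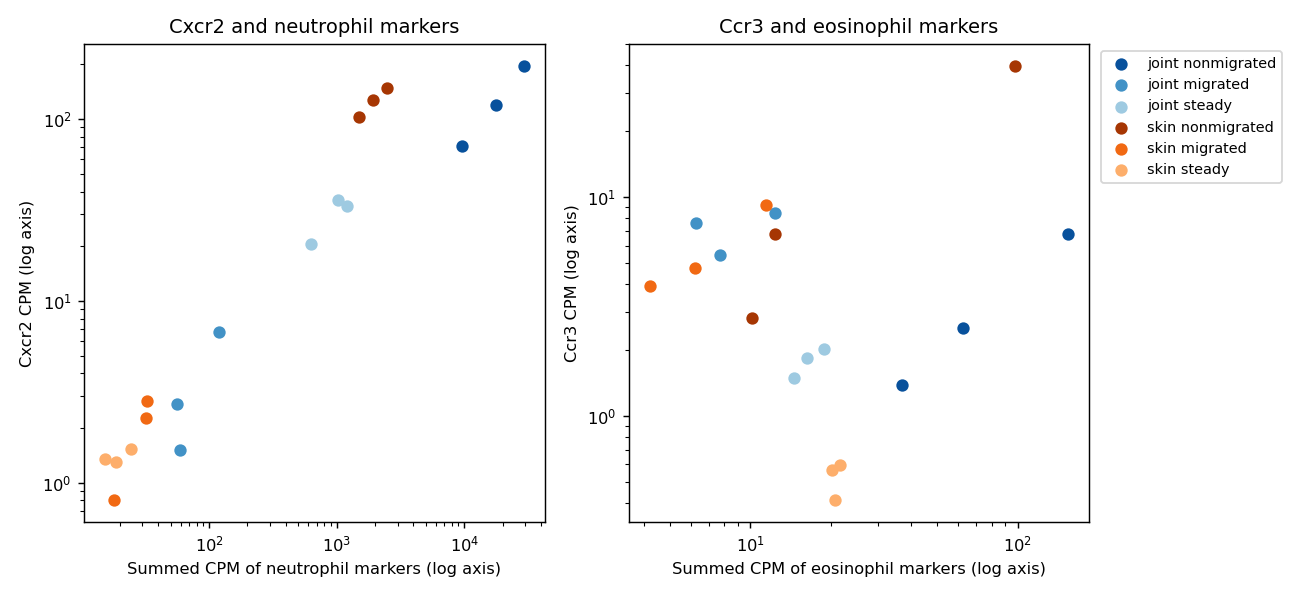
Left, Cxcr2 CPM against the summed CPM of 10 neutrophil markers, and right, Ccr3 CPM against the summed CPM of 8 eosinophil markers, on log axes with 1 point for each of the 18 libraries. Cxcr2 is at 0.801 to 6.76 CPM in the migrated and skin steady libraries (15.4 to 120.4 CPM of markers) and higher in the other groups. It overlaps between joint nonmigrated cells (71.2 to 197 CPM beside 9538 to 29257 CPM of markers) and skin nonmigrated cells (103 to 149 CPM beside 1509 to 2493 CPM). Ccr3 in migrated cells sits at 3.90 to 9.17 CPM beside 4.20 to 12.4 CPM of eosinophil markers, a sum that at steady state (14.6 to 21.6 CPM) is mostly Il5ra.

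Cxcr2 and the neutrophil markers kept the same order over replicates in joint nonmigrated cells, where replicate 3 was highest and replicate 1 lowest in both. Skin nonmigrated cells had as much Cxcr2 as joint nonmigrated cells with fewer neutrophil marker counts. The 98.0 CPM of eosinophil markers in skin nonmigrated replicate 3 went with the highest Ccr3. In the LNs the eosinophil markers moved in different directions. Their sum was 4.20 to 12.4 CPM in inflamed migrated against 14.6 to 21.6 CPM in steady-state cells, but at steady state most of it was Il5ra (12.1 to 20.03 CPM), the IL-5 receptor chain, which was called lower after inflammation (log2 -2.19 in the joint-draining and -4.37 in the skin-draining LN). Prg2, an eosinophil granule protein, was called higher together with Ccr3 in both LNs (3.18 and 5.38). The other 5 tested markers were not called in either LN, and their log2 fold changes ran from -0.13 to 1.37 in the joint-draining and from -0.21 to 5.62 in the skin-draining LN. Endothelial cells, the best known site of Ackr1, were represented by 8 blood endothelial markers at 94.7 to 124 CPM in joint migrated and 218 to 233 CPM in joint steady cells. Their members disagreed: Pecam1, which made most of the sum, was called lower (log2 -1.27), Kdr was called higher (2.74), and Vwf (1.48) and the lymphatic markers Prox1 (2.08) and Flt4 (2.42), named after their values were seen, were not called, so their part in the Ackr1 result was not tested. Erythroid markers summed to 3.10 to 29.1 CPM and 1.51 to 2.94 CPM in these groups. Cadm3, the cell adhesion gene that shares exon bases with Ackr1, moved with it: Cadm3 was at 19.5 to 24.3 CPM in joint migrated and 0.342 to 0.773 CPM in joint steady cells (log2 5.22, SE 0.244, adjusted p 4.76e-09). In the skin-draining LN it was 4.51 higher (SE 0.231, adjusted p 3.90e-09). Cadm3 was also above nonmigrated cells in migrated cells of joint and skin (2.49 and 2.16, adjusted p 0.00124 and 0.00306, not called). Whether Cadm3 transcripts gave counts to Ackr1 was not tested. Acad11, which overlaps Ackr4, had 5.79 to 20.01 CPM over the 18 libraries and was called in none of the comparisons.

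The ligands of the inflammatory receptors fell on migration together with most of the receptors. Of 17 tested inflammatory ligand genes, 12 fell and 2 rose in the joint, with a median log2 fold change of -4.93 against 0.02 over all genes. In the skin 12 fell and 1 rose (median -6.25 against 0.0093). Of all genes 12.6% fell in the joint and 12.4% in the skin. Ccl2, the main CCR2 ligand, fell by 6.65 in the joint (SE 0.589) and by 8.65 in the skin (SE 0.718). Cxcl3, a CXCR2 ligand, fell by 6.15 (SE 0.620) in the joint and fell by 9.72 in the skin (SE 0.724), and Ccl7 fell by 6.18 (SE 0.866) and by 8.29 (SE 1.11). Of the 8 further tested ligands of the atypical receptors that are not on that list, 2 rose and 2 fell in the joint and 1 fell in the skin, beside 21.4% and 20.9% of all genes called. Among those that fell, Cxcl12, the ligand that ACKR3 scavenges, fell by 7.40 in the joint (SE 0.950). Cxcl11 fell by 3.47 in the joint (SE 0.542) and by 5.15 in the skin (SE 0.538). The ligands that rose are not named here.

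Against steady state, 4 of 15 tested inflammatory ligands were higher in inflamed migrated cells of the joint-draining LN and 10 of 15 in those of the skin-draining LN, where 12.4% and 16.6% of all genes were. Cx3cl1, the CX3CR1 ligand, was higher by 6.65 (SE 0.291) and 6.09 (SE 0.273). Between the steady-state LNs, Ccl2 (7.27, SE 1.00), Cxcl2 (4.85, SE 0.614) and Ccl9 (2.98, SE 0.413) were called higher in the joint-draining LN, which was also the LN with more Ccr1, Ccr2 and Cxcr2. Between nonmigrated cells, Ccl3 (-3.56, SE 0.433) and Ccl4 (-2.84, SE 0.341), a CCR1 ligand and its close relative, and Cxcl3 (-3.53, SE 0.525) were called lower in the joint than in the skin, as was Ccr1.

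The 15 other chemokine receptors split differently. In the joint, 6 rose on migration and 3 fell, where 8.8% and 12.6% of all genes did, with a median log2 fold change of 1.36. In the skin, 4 rose and 4 fell, where 20.9% of all genes were called (median 0.28). Ccr7, the receptor for LN entry, rose by 4.87 in the joint (SE 0.559) and the chemerin receptor Cmklr1 fell by 5.82 in the joint (SE 0.375) and by 4.81 in the skin (SE 0.360). Cxcr1, which shares ligands with Cxcr2, fell by 5.15 in the skin (SE 0.694). Of 26 genes for signalling and desensitisation behind these receptors, 2 rose and 6 fell in the joint and 1 rose and 5 fell in the skin, where 21.4% and 20.9% of all genes were called. The myeloid regulator Rgs18 fell by 3.13 (SE 0.566) and by 3.34 (SE 0.607), the kinase Fgr fell by 2.79 (SE 0.244) and fell by 1.75 (SE 0.235), and the receptor kinase Grk3 rose by 1.71 at both sites (SE 0.283 each).

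Over the 18 libraries, which fall into 6 groups and so are not independent points, log2(CPM + 1) of the receptors gave a description of who kept company with whom. Cx3cr1 and Ackr3 were the closest pair (Pearson's r 0.955), followed by Ccr1 and Cxcr2 (0.918), Ccr2 and Cx3cr1 (0.878) and Ccr1 and Ccr2 (0.835). Ackr2 ran against the receptors that fell, from -0.389 with Ccr2 to -0.666 with Ackr3. Ackr4 stood apart, with no value above 0.424 against the others.

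Among 17116 genes with at least 10 counts in every library of some group, those most like Ccr1 were Fcgr3 (r 0.993), F10, Ifi204, Gpr141 and Clec4d. Those most like Cxcr2 were Trem1 (0.988), Csf3r, Chil1, Nlrp12 and Slc40a1, of which Csf3r is on the neutrophil marker list. Cx3cr1 was most like Fos (0.985), Klf4, Ptgs1, Nadk and Fzd4, Ackr3 like Gm20658 (0.989), Kcnk13, Cilp, Tmem164 and Agpat2, and Ccr2 like Frmd4b (0.979), Nhsl2, Itgb5, Cemip2 and Dna2. The likeness was looser for Ackr1 (Tnni3, 0.955, then Dnaaf3, Nuak1, Lhpp and Vcam1), Ackr2 (Mdk, 0.895, then 4933404K13Rik, Ctnnal1, Fnbp1 and Acvr1c), Ccr3 (Fgf11, 0.852, then Flt4, Abi3bp, Pla2g3 and Gm44135) and Ackr4 (Fam84a, 0.811, then Tdrd9, Ddit4, Gcsam and Asb2). These names depend on the scale: 26 of the 45 places stayed with log2(CPM + 0.1) and 7 of 45 with the 6 group means.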

How the data were processed

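Libraries were sequenced as paired reads on an Illumina HiSeq instrument. The authors trimmed reads with Trim-Galore!, aligned them with TopHat2 to mm10 with Ensembl 87 gene models, and counted them per gene with HTSeq in its default mode. The deposited table holds these raw counts for 18 samples and 49585 genes after 5 HTSeq summary rows (11.3% to 15.1% of each column) were removed. GENCODE M21 matched 49326 genes and gave symbols, lengths and positions. Nothing was realigned, and 0 columns of the table were left without a sample.

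The test was edgeR's quasi-likelihood F test (version 4.0.16, R 4.3.3) on the deposited counts, with TMM factors and filterByExpr at 10 counts. The 12 inflamed samples were fitted together, as were the 12 LN samples, with group as the only factor. Adjusted p-values cover all genes of a comparison. Calls needed an adjusted p below 0.001 and a log2 fold change over 1 in size; the study's methods use DESeq2 with 0.05, and both that threshold and the DESeq2 1.42.0 Wald test were tried. SEs were derived from the fold change and the F statistic. The scripts were tested on simulated data. Other alternatives were DESeq2 size factors, other filters on low counts, a replicate block, fits of only the groups compared or of all 18 samples, and leaving out each replicate. Counting intervals are exact 95% intervals and cover counting error only.

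No 2 libraries of a group agreed within sampling noise (chi-square per degree of freedom 16.2 to 129.6). Named genes are the 9 receptors, up to 4 called genes of each fixed list with the largest fold changes, the 5 genes most correlated with each receptor, and genes that overlap a receptor. The receptors, lists and markers were chosen with earlier results of these data known. Whether libraries keep strand is not given in the sources used here. Promoters are RefSeq sequences (GRCm38.p6), found for 9 of the 9 genes.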

Additional observations from a re-analysis of the deposited data

Results flagged for a closer look

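The change of Ccr1 between inflamed migrated and steady-state cells differed between the LNs by a test of that difference: joint minus skin gave -4.09 on the log2 scale (edgeR quasi-likelihood test, adjusted p 2.15e-05), with Ccr1 lower after inflammation in all 3 joint migrated against all 3 joint steady libraries and higher in all 3 against 3 in the skin.

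Ackr4 had separate groups in opposite directions, higher after inflammation in the joint-draining LN (1.10, SE 0.369, adjusted p 0.0241) and lower in the skin-draining LN (-0.94, SE 0.519, adjusted p 0.126). The difference of 2.04 did not pass the test (edgeR, adjusted p 0.0581), and it rests on 2, 4 and 3 counts in the skin migrated libraries.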

How the results depend on the processing

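The count of called receptors moved by over 1.5 times under the following settings. With an adjusted p under 0.05 it became 4 for joint against skin nonmigrated cells, 1 for joint against skin migrated cells, 4 for the migration by site interaction and 6 for the inflammation by site interaction. The DESeq2 Wald test gave 3 for each interaction, no filter on low counts gave 1 and 3, and all 18 samples in one fit gave 1 for the migration by site interaction and 3 for the joint-draining LN against steady state. With only the groups compared it was 0 for joint against skin nonmigrated cells and 3 for the joint-draining LN against steady state. Leaving out 1 replicate gave 1 to 4 for joint against skin nonmigrated cells, 3 to 5 for the joint-draining LN against steady state and 1 to 2 for the inflammation by site interaction. Apart from the looser p and the smaller or larger sets of samples and genes, the cause of these moves was not tested.

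Leaving out 1 replicate turned the sign of 5 uncalled fold changes, whose ranges were -0.54 to 0.21 for Cxcr2 (joint against skin, nonmigrated), -2.07 to 0.19 for Ccr3 (skin migrated against nonmigrated), -0.012 to 0.68 for Ccr3 (joint against skin, migrated), -0.029 to 0.44 for Ackr3 (joint-draining LN against steady state) and -0.11 to 0.40 for Ackr3 (joint against skin, steady state). No call turned its direction under the alternatives run.

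With the replicate block, 6 and 5 receptors were called on migration in joint and skin, 4 and 4 against steady state, and 0 and 1 in the interactions, and Ccr1 in the joint-draining LN was the 1 call lost (-1.14, adjusted p 0.00292). Genes called on migration went from 3586 to 2826 in the joint and from 3508 to 2750 in the skin. Same-numbered migrated and nonmigrated samples deviated from their group means with correlations of 0.028 to 0.288 in the joint and 0.0850 to 0.194 in the skin. Every skin migrated and skin nonmigrated library correlated best with its own number. In the joint the exception was nonmigrated replicate 1 (0.028 with its own number and 0.0388 with migrated replicate 2). Same-numbered correlations with steady state were negative, but they do not bear on whether migrated and nonmigrated samples were paired. The labels do not say that equal numbers share a pool, so the main fits took no pairs. No block value was possible between sites because the blocks lie within a site.

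Of the names most like the receptors, 26 of 45 remained with log2(CPM + 0.1) and 7 with the 6 group means. Under DESeq2 size factors 8 of 9 receptors kept the order of all 6 group means. Counts of 0 to 12 in a library limit what can be said of Ackr1 at steady state and in skin nonmigrated replicates 1 and 2. The same holds for Ackr2 in nonmigrated cells, and for Ackr3 and Ackr4 in skin migrated cells.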
